A study of Homo sapiens with 16 samples.

Results

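The response to MS78 was measured in H1299 cells that carry the p53 mutant Y220C. The libraries were chosen by their labels alone: 4 libraries of Y220C cells given 10 µM MS78 for 24 h and 4 libraries of the same cells given the vehicle DMSO, which are 8 of the 16 libraries of the series. NCI-H1299 is a non-small cell lung cancer cell line that lacks p53, and both lines of the series descend from it. Both were grown in RPMI with 10% serum and 1% penicillin and streptomycin. The Y220C cells were also kept in 500 µg/mL G418, the antibiotic that selects for the introduced gene, and the p53-null cells were not, so the mutant and the selection cannot be told apart between the lines. No label or file names the promoter that drives the mutant, its copy number, or whether the line is a single clone. The other 8 libraries, 4 of p53-null cells with MS78 and 4 with DMSO, served to show where the response of the Y220C cells differed. Polyadenylated RNA was sequenced, and reads per gene are given as CPM, the count scaled to a library of 1000000 reads.

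The tumour suppressor p53 is a transcription factor that, when active, raises genes for cell cycle arrest (CDKN1A), for its own decay (MDM2) and for cell death (the TRAIL receptors, PMAIP1, BAX). The Y220C substitution opens a crevice on the surface of the DNA-binding domain and makes the protein unstable, so that much of it unfolds at body temperature. MS78 is a bifunctional molecule: one end binds the mutant and the other recruits p300 or CBP, enzymes that acetylate lysines, so that p53 Y220C becomes acetylated. Unfolded proteins are met by separate programmes: heat shock factor HSF1 raises cytosolic chaperones, and the sensors of the endoplasmic reticulum (ER) raise the chaperones of that compartment. The factor ATF4 serves amino acid shortage, SREBP factors serve sterol and lipid synthesis, and growth factor or stress kinases raise the immediate early genes within minutes to hours.

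The 8 libraries held 20.3 M to 23.2 M estimated reads each, so that 3 reads, the upper limit that a count of 0 allows, stood at 0.130 to 0.148 CPM. This limit covers counting error only, since the reads carry no molecular identifiers. No label says that replicates came from separate cultures, and p-values measure only the spread between these libraries. Along the first principal component, which held 45.7% of the variance, the 4 DMSO libraries lay on one side and the 4 MS78 libraries on the other. On the next, with 16.6%, DMSO replicate 1 (34.4) and MS78 replicate 1 (-43.9) stood apart from the other 6 libraries. Reads of leukocyte genes were present in 4 of the 8 libraries. PTPRC (CD45), a surface phosphatase of all white blood cells, had 55 reads in DMSO replicate 1 and 70, 93 and 60 in MS78 replicates 2, 3 and 4, and 0 in the other 4 libraries. The null cells showed the same split, with 60 reads in DMSO replicate 1, 99, 99 and 74 in MS78 replicates 2, 3 and 4, and 0 or 1 in the other 4. Over 26 leukocyte markers the summed level was 141 to 232 CPM in the libraries with such reads and 61.4 to 74.2 CPM in those without. Most of the level in those without came from markers that had at least 40 reads in each of the 8 libraries. When these markers were left out, the sums were 71.1 to 157 CPM with such reads and 0.667 to 1.23 CPM without. In every library without such reads 10 of the 26 markers were at 0. These reads were unevenly split, in 1 of 4 DMSO libraries and 3 of 4 MS78 libraries, and in each group the odd library out was the one that stood apart along the second component. The total counts and the counts of the lists are therefore set below against those made within each part of the split. Epithelial markers were uneven in level: CDH1 and EPCAM stood near 1 CPM. The summed level of the 10 listed was 803 to 850 CPM with DMSO and 613 to 651 CPM with MS78. The keratins KRT8 (log2 fold change -0.44) and KRT18 (-0.38) fell with MS78, and of 8 tested markers 0 rose and 2 fell.

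**Figure D1:**
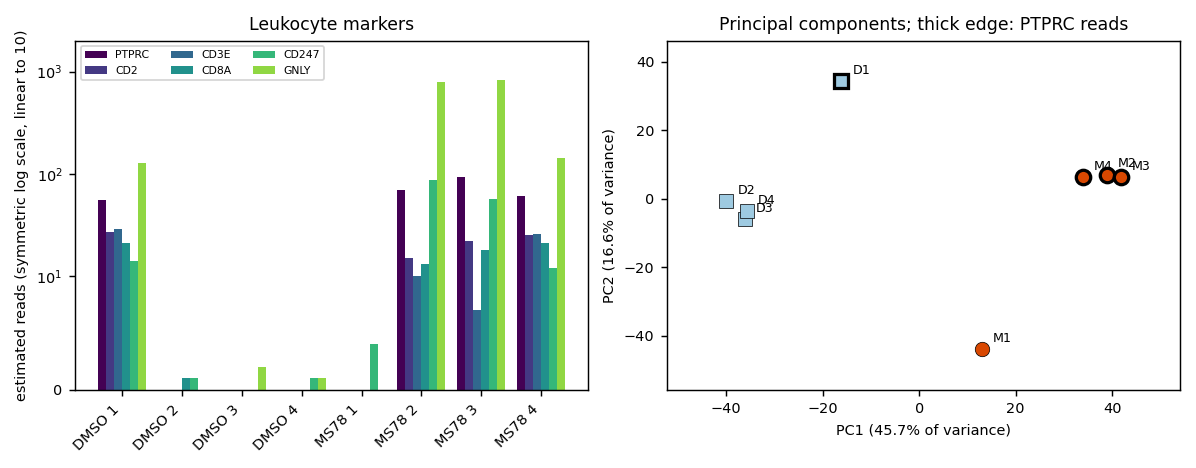
Left: reads of 6 leukocyte genes in each library of the Y220C cells, on a symmetric log axis that is linear up to 10. Right: the first and second principal components of the 8 libraries, with a thick edge for those with PTPRC reads. The reads are in DMSO replicate 1 and MS78 replicates 2 to 4, and DMSO replicate 1 and MS78 replicate 1 lie away from their groups along the second component.

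Some of the genes that rose carry a known regulatory sequence in the 250 bases before to 50 bases after their start. The windows below are shown because each holds a match to an element bound by the factors of the 3 programmes described next. Strings of other elements were searched for as well and are not reported here. They are from RefSeq (GRCh38.p14), written 5′ to 3′ on the strand of the gene, with each match on either strand in capitals. In the first 3 windows the capitals mark the heat shock element, GAA, TTC and GAA with 2 bases of any kind between neighbours. In the next pair they mark the ER stress element, CCAAT followed after 9 bases of any kind by CCACG, and in EGR1 the CArG box bound by serum response factor.
HSPA6, an inducible HSP70 (chr1:161524290-161524589, plus strand):
HSPA6: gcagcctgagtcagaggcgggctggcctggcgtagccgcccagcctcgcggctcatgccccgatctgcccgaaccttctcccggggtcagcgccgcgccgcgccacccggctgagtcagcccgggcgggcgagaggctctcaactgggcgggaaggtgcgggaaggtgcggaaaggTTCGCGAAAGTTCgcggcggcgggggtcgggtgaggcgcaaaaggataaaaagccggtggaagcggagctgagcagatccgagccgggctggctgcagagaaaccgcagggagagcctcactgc
CHORDC1, an HSP90 co-chaperone (chr11:90223000-90223299, minus strand):
CHORDC1: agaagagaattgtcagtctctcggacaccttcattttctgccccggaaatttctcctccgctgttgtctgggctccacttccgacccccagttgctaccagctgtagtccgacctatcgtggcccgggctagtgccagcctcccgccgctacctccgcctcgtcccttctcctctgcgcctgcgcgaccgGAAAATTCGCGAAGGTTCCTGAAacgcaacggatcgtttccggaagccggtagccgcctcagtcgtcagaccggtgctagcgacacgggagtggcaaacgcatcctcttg
HSPA8, the constitutive HSP70 (chr11:123062087-123062386, minus strand):
HSPA8: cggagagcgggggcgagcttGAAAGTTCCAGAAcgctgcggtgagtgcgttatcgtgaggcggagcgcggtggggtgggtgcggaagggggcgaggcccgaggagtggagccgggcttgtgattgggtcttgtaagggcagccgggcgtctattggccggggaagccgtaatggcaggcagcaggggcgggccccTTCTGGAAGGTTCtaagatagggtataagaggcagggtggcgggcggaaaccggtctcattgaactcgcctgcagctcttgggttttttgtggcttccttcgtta
HSPA5, the main ER chaperone BiP (chr9:125241294-125241593, minus strand):
HSPA5: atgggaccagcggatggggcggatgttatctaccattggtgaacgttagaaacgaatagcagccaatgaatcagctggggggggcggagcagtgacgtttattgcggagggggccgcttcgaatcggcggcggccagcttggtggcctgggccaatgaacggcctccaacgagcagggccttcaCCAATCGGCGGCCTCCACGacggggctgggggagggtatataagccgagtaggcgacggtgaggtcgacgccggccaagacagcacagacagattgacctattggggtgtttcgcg
HSP90B1, the ER form of HSP90 (chr12:103930160-103930459, plus strand):
HSP90B1: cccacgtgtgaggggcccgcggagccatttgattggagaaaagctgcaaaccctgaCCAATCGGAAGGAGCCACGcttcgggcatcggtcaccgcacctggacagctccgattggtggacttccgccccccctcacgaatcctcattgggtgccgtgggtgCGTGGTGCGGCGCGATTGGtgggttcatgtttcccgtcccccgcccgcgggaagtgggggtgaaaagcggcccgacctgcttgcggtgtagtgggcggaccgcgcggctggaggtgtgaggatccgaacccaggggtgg
EGR1, an immediate early transcription factor (chr5:138465229-138465528, plus strand):
EGR1: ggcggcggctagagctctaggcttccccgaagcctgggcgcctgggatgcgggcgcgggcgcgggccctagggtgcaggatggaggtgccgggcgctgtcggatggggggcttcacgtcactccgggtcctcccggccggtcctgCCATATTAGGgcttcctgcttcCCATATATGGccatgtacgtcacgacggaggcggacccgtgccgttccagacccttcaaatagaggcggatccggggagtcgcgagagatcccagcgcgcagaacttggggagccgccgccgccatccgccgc

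MS78 changed the level of 7611 of 15687 tested genes in the Y220C cells, which is 48.5%, at an adjusted p under 0.05 by edgeR's quasi-likelihood test with Benjamini-Hochberg adjustment, the test behind every adjusted p given here. Of these, 3913 rose (24.9%) and 3698 fell (23.6%), and these shares are the background for any gene group in which members are counted. A change of at least 2-fold was seen for 696 genes (4.44%), of which 372 rose (2.37%) and 324 fell (2.07%). The 15 protein-coding genes with the largest rises, at a mean of 1 CPM or more over the 8 libraries and with no overlap between the groups, included heat shock genes (HSPA6, HSPA1A, HSPA1B), immediate early genes and a phosphatase of their kinases (EGR4, EGR2, FOS, FOSB, DUSP8, EGR1, NR4A3), and lipid synthesis genes (HMGCS1, MVD, MSMO1, FASN). Below that level the small chaperone CRYAB (0, 1, 0 and 0 reads with DMSO and 33, 31, 24 and 30 with MS78) and the early genes EGR3 (3, 2, 0 and 1, and 22, 27, 26 and 29) and ARC (0, 4, 1 and 3, and 38, 26, 24 and 29) rose as well, and were named after their values were seen. The falls were smaller, and those at the head of the list were RIBC2, the kinetochore subunit SPC24, IQCN, the recombination gene RAD54L, the S phase factor E2F2 and MXD3 of the MYC network.

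**Figure D2:**
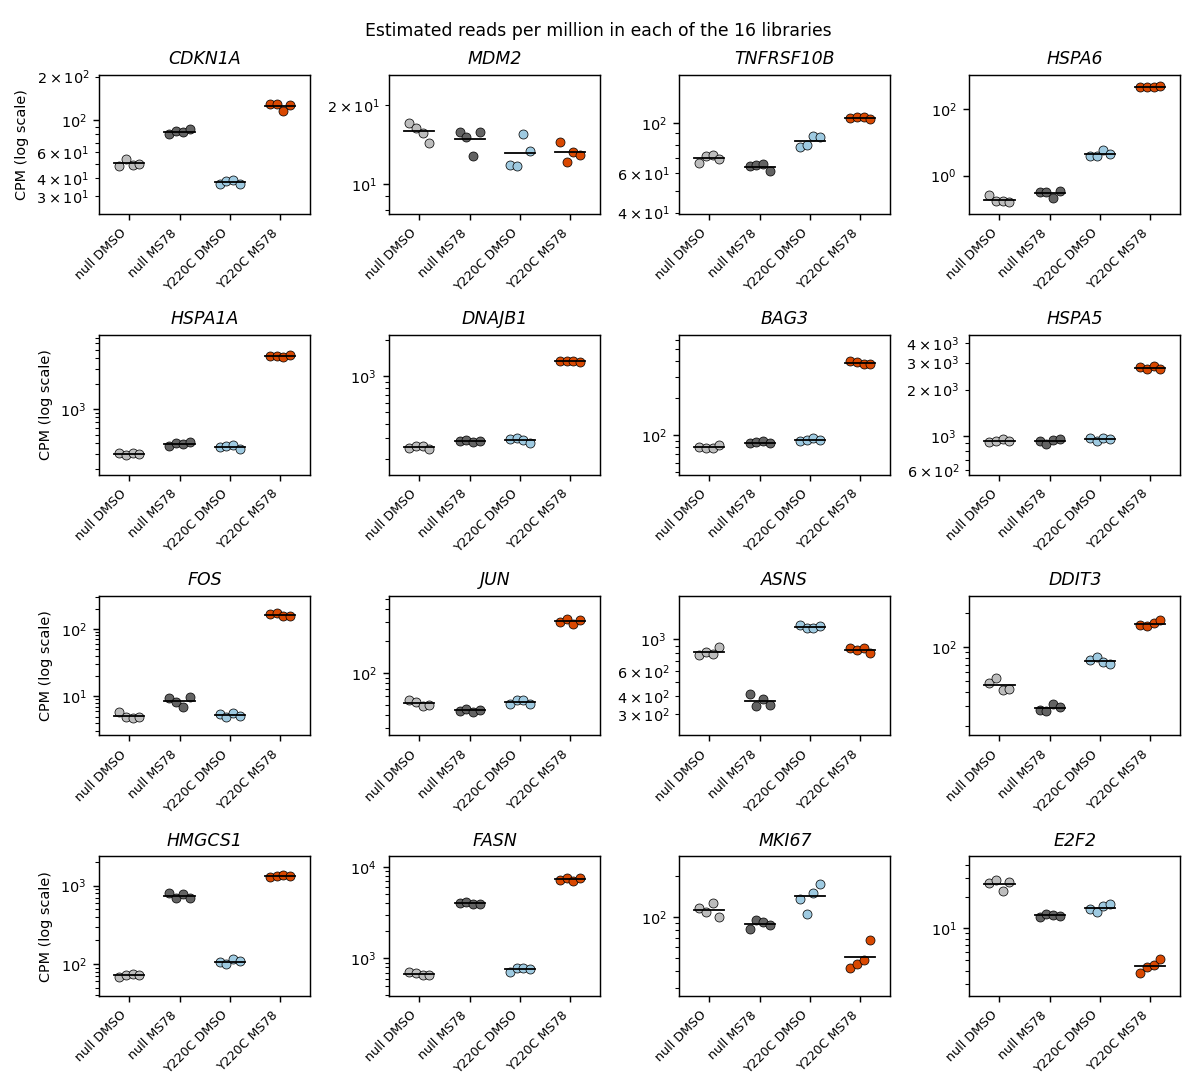
Level of 16 genes in each library of the 4 groups, in CPM on log axes; points are libraries and bars are group means. For HSPA6, FOS and HSPA5 the 4 Y220C libraries with MS78 lie above every other library, whereas HMGCS1 and FASN are high with MS78 in both lines.

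Among 65 tested genes, of 71 listed as known targets of p53, 23 rose and 10 fell, and the median log2 fold change was 0.15 against -0.01 over all genes. The count of rises is a larger share than the background, but the list did not move as a block. In null cells 14 of the 65 rose and 14 fell (background 14.8% and 13.3%). The genes for cell cycle arrest moved in 1 direction in the Y220C cells, with 5 of 8 rising and 0 falling. CDKN1A, which encodes the cyclin-dependent kinase inhibitor p21, stood at 36.6, 38.2, 38.6 and 36.2 CPM with DMSO and 129, 129, 115 and 127 CPM with MS78. That was a 3.34-fold rise without overlap (adjusted p = 4.51e-17), against a log2 change of 0.73 in null cells, and the difference of 1.01 was itself significant (adjusted p = 7.07e-10). The growth arrest gene GADD45A (between 39.95 and 48.7 CPM with DMSO and between 79.2 and 82.7 CPM with MS78) rose by 0.88 log2 units and fell in null cells (-0.36). The stress kinases PLK2 (0.82) and PLK3 (1.05) also rose.

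Of 6 negative feedback genes 3 rose and 0 fell. MDM2, the ubiquitin ligase that degrades p53 and a standard readout of its activity, stood at 11.8, 11.8, 15.6 and 13.4 CPM with DMSO and 14.5, 12.2, 13.3 and 12.9 CPM with MS78. The groups overlapped and no change was detected (log2 0.0080 ± 0.094, SE; adjusted p = 0.952). The phosphatase gene PPM1D, another target that restrains p53, rose by 0.65 log2 units (adjusted p = 3.08e-09). Among DNA repair targets 1 of 8 rose and 3 fell, the 3 being DDB2 (-0.46), FDXR (-0.40) and POLH (-0.36), and each of them fell in null cells as well (-0.47, -0.33 and -0.27). DDB2 takes part in repair of ultraviolet damage, FDXR is a mitochondrial reductase and POLH is a translesion polymerase. Of 20 apoptosis targets 6 rose and 4 fell, of 10 targets in metabolism 3 rose and 1 fell, and of 15 secreted, matrix or other targets 7 rose and 2 fell. The nuclease gene AEN (0.81), the polyamine acetyltransferase SAT1 (1.77), the cytokine LIF (1.67) and the growth factor PGF (1.63) were among those that rose. In null cells SAT1 (0.68) and LIF (0.61) also rose, and AEN fell (-0.43). For PGF no change was detected in null cells (0.014, adjusted p = 0.950), and the difference between the lines was 1.62 (adjusted p = 1.73e-07).

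Receptors of the death ligand TRAIL rose for 3 of 4 genes. TNFRSF10A (DR4), a receptor that signals death, went from 15.7, 16.5, 16.7 and 16.04 CPM to 23.8, 24.1, 21.9 and 26.8 CPM (log2 0.58 ± 0.070, SE; adjusted p = 8.68e-07). TNFRSF10B (DR5), which signals likewise, went from 78.2, 79.9, 87.1 and 86.5 CPM to 105, 106, 106 and 103 CPM (log2 0.34; adjusted p = 7.15e-07), and it fell in null cells (-0.13). TNFRSF10D, a decoy receptor that does not signal death, rose most, from 23.1, 25.5, 23.4 and 23.4 CPM to 46.3, 47.5, 46.7 and 46.1 CPM (1.96-fold; adjusted p = 1.17e-10). For none of the 3 did the libraries of the groups overlap. In null cells TNFRSF10A (0.24, adjusted p = 0.0139) and TNFRSF10D (0.71, adjusted p = 7.54e-08) rose as well. TNFRSF10C, the other decoy, was below 2 CPM everywhere and was not called. The ligand TNFSF10 had reads mainly where leukocyte reads were present: 23, 0, 0 and 1 with DMSO and 0, 11, 12 and 23 with MS78. Of 6 other death receptors 1 rose and 2 fell: TNFRSF12A (the receptor of TWEAK) rose by 0.87, and TNFRSF1B (-0.86), a receptor of tumour necrosis factor, and TNFRSF25 (-0.71) fell. The call of TNFRSF25 was lost within the libraries with PTPRC reads (-0.59). Of 9 genes of the signalling complex 4 rose and 2 fell, and among them the inhibitor of apoptosis BIRC3 rose by 0.999 while the inhibitor of caspase activation CFLAR fell by 0.18 on the log2 scale. The call of CFLAR was lost within the libraries with PTPRC reads (-0.036, adjusted p = 0.756) and without DMSO replicate 3 (-0.14) or MS78 replicate 1 (-0.13). Over all 21 genes of the death receptor list 9 rose and 4 fell.

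Of 17 tested genes of the BCL2 family, which controls the mitochondrial arm of cell death, 5 rose and 1 fell, and of 14 caspase and inhibitor genes 7 rose and 4 fell. The falls of the first list are a smaller share than the background, and the rises of the second a larger one. MCL1, a guardian against death, rose by 0.52, as did the effector BAK1 (0.30) and the BH3-only genes HRK (0.44) and PMAIP1 (0.39), and the effector BAX was lower (log2 -0.16, adjusted p = 0.0492) with overlapping groups. The call of BAX was lost within the libraries with PTPRC reads (-0.10) and those without (-0.25), with DESeq2, RLE factors, length-scaled TPM or the 8 libraries alone, and without DMSO replicate 1, 2 or 3 or MS78 replicate 1, 3 or 4 (-0.11 to -0.18). HRK and PMAIP1, which antagonise the guardians, fell in null cells (-0.40 and -0.59). Within the libraries without PTPRC reads HRK (0.41) and PMAIP1 (0.31) were not called. The initiator CASP9 rose (0.59), CASP2 fell (-0.34), and survivin, BIRC5, which is made in mitosis, fell with the cell cycle genes (-0.82).

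Heat shock genes rose as a group in the Y220C cells. Of 64 listed genes 60 passed the filter on low counts and were tested, and of these 43 rose and 8 fell, with a median log2 fold change of 0.50 and 18 rises of at least 2-fold, and for 45 the response was higher than in null cells (background 14.4%). In null cells 17 of the 60 rose and 10 fell (background 14.8% and 13.3%). All 4 stress-inducible HSP70 genes rose in the Y220C cells. HSPA6, which is nearly silent in unstressed cells, stood at 4.03, 4.01, 5.92 and 4.62 CPM with DMSO and 475, 471, 465 and 504 CPM with MS78. That is 103-fold (log2 6.69 ± 0.069, SE; adjusted p = 1.03e-23), the largest rise of any gene under the naming rule, and in null cells, where it had 4 to 6 reads with DMSO and 5 to 9 with MS78, it changed by 0.63 (adjusted p = 0.281). HSPA1A rose from 361, 372, 376 and 339 CPM to 4252, 4295, 4148 and 4347 CPM, 11.8-fold (adjusted p = 2.03e-23). Its near-identical copy HSPA1B rose by 3.29 log2 units and the less abundant HSPA1L by 1.02. In null cells HSPA1A (0.39, adjusted p = 3.83e-08) and HSPA1B (0.42, adjusted p = 6.46e-08) rose as well, by less. Reads cannot be divided between HSPA1A and HSPA1B with certainty. HSPA1A, HSPA1B and HSPA6 together took 0.0637% to 0.0701% of all reads with DMSO and 0.708% to 0.769% with MS78. The summed level of the list was 22946 to 24424 CPM with DMSO and 44739 to 46367 CPM with MS78.

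Most partners of HSP70 rose. DNAJB1, the HSP40 that delivers clients to HSP70, went from 296, 302, 288 and 275 CPM to 1331, 1332, 1350.1 and 1305 CPM (4.58-fold; adjusted p = 1.95e-21), and 7 of 9 HSP40 genes rose and 0 fell, DNAJB4 (1.47) among them. The nucleotide exchange factors BAG3 (between 90.5 and 95.3 CPM with DMSO and between 378 and 400.0 CPM with MS78, log2 2.08) and HSPH1 (between 231 and 240.0 CPM with DMSO and between 719.9 and 773 CPM with MS78, log2 1.66) rose without overlap. They were 2 of 4 tested genes listed as exchange factors, of which 1, HSPBP1, fell (-0.25). In null cells HSPH1 did not pass the test (-0.033, adjusted p = 0.522), and BAG3 rose by 0.12 and DNAJB1 by 0.18. Of 3 HSP90 genes 2 rose and 1 fell: the inducible HSP90AA1 rose from between 3794 and 3994 CPM to between 8331 and 8901 CPM (log2 1.16), the constitutive HSP90AB1 rose by 0.47, and mitochondrial TRAP1 fell (-0.47). Of 10 genes listed as HSP90 co-chaperones 7 rose and 3 fell. CHORDC1 rose by 1.67, and the falls were in FKBP5 (-0.29), CDC37 (-0.16) and STUB1 (-0.27). The 7 include an enzyme of collagen synthesis, which is not a co-chaperone. HSPBP1, CDC37 and STUB1 were not called within the libraries without PTPRC reads (-0.17, -0.063 and -0.13). Constitutive HSPA8 rose by 0.85, the small chaperone HSPB8 by 1.69, and the mitochondrial chaperonin pair HSPD1 (0.71) and HSPE1 (0.87) were among 6 of 10 chaperonin genes that rose, with 1 falling. Of 6 genes listed as constitutive HSP70, which include relatives of HSPH1 that act as exchange factors, 3 rose, and HSPA2 fell (-0.32). The small chaperone HSPB1 rose in both lines (0.49 and 0.51), with a difference of -0.016 ± 0.065 (SE; adjusted p = 0.894).

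All 8 tested further targets of HSF1 rose, among them the heme oxygenase HMOX1 (between 30.2 and 35.6 CPM with DMSO and between 178 and 192 CPM with MS78, log2 2.45). In null cells 3 of the 8 rose and 2 fell, and HMOX1 rose by 0.55. The message of HSF1 itself was not seen to change in the Y220C cells (log2 0.049 ± 0.040, SE, adjusted p = 0.335). Proteasome genes moved no more often than the background: 6 of 37 rose and 8 fell, with the 19S subunit PSMC3 lowest (-0.56) and the ubiquitin receptor SQSTM1 highest (1.13). The heat shock element shown in capitals above was found in 35 of 11503 promoters that could be matched (0.304%) and in 6 of 52 matched heat shock genes. Of the 35 genes 16 rose and 2 fell, with a median log2 fold change of 0.11. The window of HSPA1A, which was matched, does not hold these letters. The 3 matches in CHORDC1 overlap each other.

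ER stress genes moved in 1 direction too. Of 26 tested members 22 rose and 0 fell (median 0.55), and in 19 the response was higher than in null cells, where 9 rose and 4 fell (background 14.8% and 13.3%). HSPA5, which holds unfolded proteins and the stress sensors of the ER, stood at 972, 933, 968 and 952 CPM with DMSO and 2794, 2735, 2842 and 2743 CPM with MS78. It rose 2.91-fold (log2 1.54 ± 0.028, SE; adjusted p = 4.62e-20), while in null cells no change was detected (adjusted p = 0.974). HSP90B1 rose by 0.96, and 11 of 12 ER chaperones rose in all. Of sensors and factors, the kinase EIF2AK3 (PERK) rose by 1.18 and XBP1 by 0.81. The degradation gene HERPUD1 went from 53.2, 53.6, 54.9 and 56.9 CPM to 137, 131, 131 and 126 CPM (log2 1.26) and fell in null cells (-0.23). DDIT3 (CHOP), a factor that promotes death under prolonged stress, went from 77.5, 81.5, 73.2 and 70.9 CPM to 157, 153, 163 and 173 CPM, a log2 rise of 1.09 against -0.69 in null cells (difference 1.78, adjusted p = 4.98e-11). The ER stress element was found in 14 promoters (0.122%), 6 of them in the list (HSPA5, HSP90B1, CALR, CANX, CRELD2 and XBP1). Of the 14 genes 13 rose and 0 fell, with a median of 0.55, and the exception was the zinc finger gene ZNF17 (0.090, adjusted p = 0.643). CALR (0.69), CANX (0.60) and CRELD2 (0.32) rose. These 3 and ZNF17 were named after their values were seen.

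Immediate early genes rose for 30 of 34 tested members, with 0 falling and a median log2 fold change of 1.16, above those of all other lists but the sterol, fatty acid and leukocyte marker lists. In null cells 20 rose and 4 fell (background 14.8% and 13.3%), with a median of 0.41. The response was higher in Y220C cells for 25 and lower for 1. FOS, a subunit of the AP-1 factor, stood at 5.48, 4.88, 5.63 and 5.11 CPM with DMSO and 168, 173, 156 and 156 CPM with MS78. It rose 30.9-fold (adjusted p = 4.32e-21) and by 0.75 log2 units in null cells. FOSB rose from between 1.93 and 3.05 CPM to between 59.97 and 66.004 CPM (log2 4.66). JUN, the partner of FOS, went from 50.9, 55.95, 55.2 and 50.98 CPM to 303, 321, 289 and 314 CPM, 5.77-fold, whereas it fell in null cells (-0.23), a difference of 2.76 ± 0.067 (SE; adjusted p = 4.70e-17). JUND rose in both lines (1.15 and 0.82). The stress factor ATF3 rose from between 7.58 and 10.03 CPM to between 41.5 and 46.9 CPM (2.29) and fell in null cells (-0.74), the widest difference between the lines among genes called in opposite directions in the lists.

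All 4 EGR genes rose. EGR1 went from 26.9, 29.1, 28.5 and 24.6 CPM to 334, 348, 321 and 350.3 CPM (12.4-fold). EGR4 had 1, 2, 0 and 3 reads with DMSO and 113, 95, 89 and 83 with MS78, and EGR2 had 5, 0, 1 and 1 against 70, 67, 70 and 67. For these fitted folds depend on the prior count, and the reads are the better guide. The orphan nuclear receptors NR4A1 (2.48) and NR4A3 (3.21) and the KLF factors KLF2 (1.49) and KLF6 (1.23) rose, and so did the matrix-cell signal CTGF (1.85). Of the 5 listed phosphatases that shut off MAP kinases, DUSP1 (1.26), DUSP2 (1.62) and DUSP5 (1.17) rose, and DUSP4 (0.93, adjusted p = 0.355) and DUSP6 (0.040, adjusted p = 0.421) did not pass the test. DUSP8, named as 1 of the 15 largest rises, went from 7, 10, 7 and 9 reads to 124, 114, 93 and 109. The CArG box was present in 126 matched promoters (1.10%) and in 2 of 25 matched immediate early genes, EGR1 and SRF.

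The ATF4 list did not follow the ER genes. Of 37 tested members 10 rose and 16 fell (median -0.10), and in null cells 1 rose and 31 fell, so that for 32 the response was higher in Y220C cells. Amino acid synthesis fell in 8 of 9 genes: asparagine synthetase ASNS went from 1244, 1184, 1192 and 1231 CPM to 868, 840.2, 861 and 795 CPM (log2 -0.53, against -1.13 in null cells), and the serine pathway genes PHGDH (-0.65) and PSAT1 (-0.43) fell. ATF4 rose slightly (0.19) and fell in null cells (-0.32). Stress effectors were split. PPP1R15A (GADD34), which reverses the translation block, went from between 47.4 and 52.5 CPM to between 149 and 164 CPM (log2 1.63), whereas the glutathione-degrading enzyme CHAC1 (-0.56) and the mTOR inhibitor DDIT4 (-0.87) fell. Of 7 amino acid transporters 2 rose and 1 fell. The glutamine transporter SLC38A2 (0.46) and the transporter subunit SLC3A2 (0.20) rose, and SLC7A5, which pairs with SLC3A2, fell (-0.66).

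**Figure D3:**
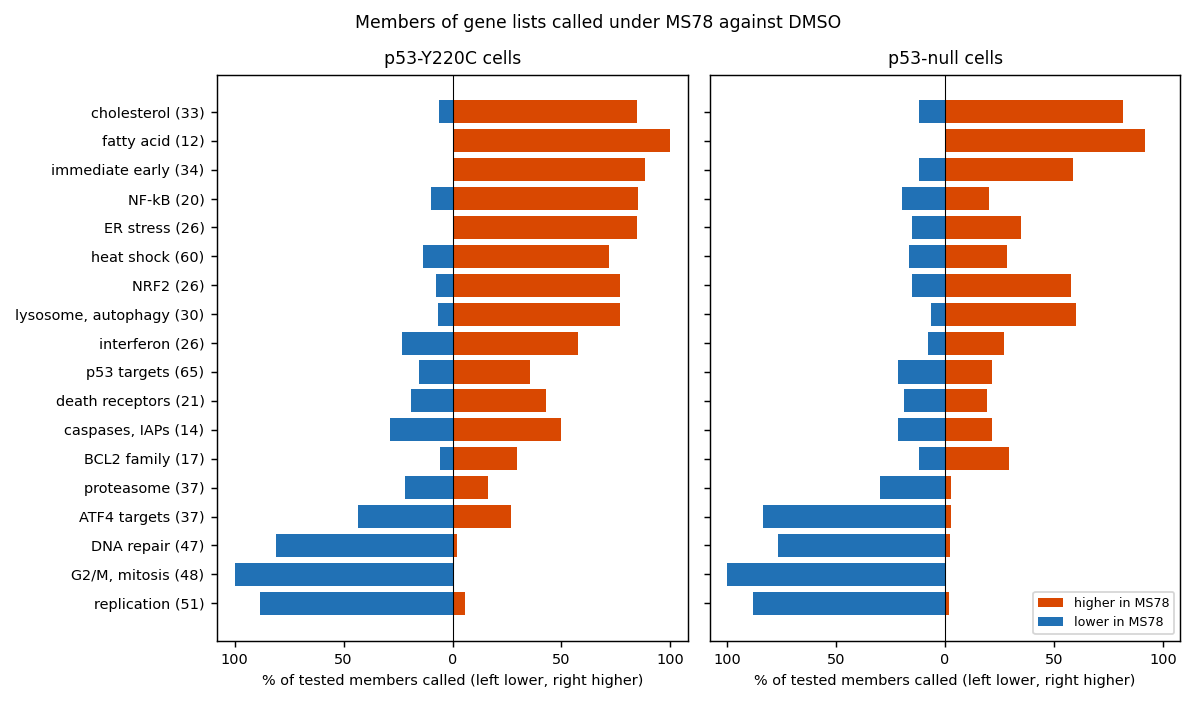
Share of tested members called higher (to the right) or lower (to the left) with MS78, for each gene list, in the Y220C cells and the p53-null cells. Heat shock, ER stress and NF-kB lists are mostly higher in the Y220C cells. The immediate early list is mostly higher in both lines, with 30 of 34 members in the Y220C cells and 20 in null cells. The lipid lists are higher in both lines, and mitosis and replication lists are lower in both.

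Sterol and fatty acid synthesis rose strongly in both lines. Of 33 cholesterol genes 28 rose and 2 fell (median 1.65), with 27 and 4 in null cells, and all 12 fatty acid genes rose (median 1.20), with 11 in null cells. HMGCS1, a synthase early in cholesterol synthesis, went from 107, 98.7, 115 and 108 CPM with DMSO to 1303, 1310.3, 1349 and 1319.7 CPM with MS78, 12.3-fold (adjusted p = 1.70e-21), with no overlap between the groups. Its log2 change was 3.62 in Y220C cells and 3.37 in null cells, a difference of 0.25 (adjusted p = 0.0116). MVD (3.48, and 3.30 in null cells) was among the 19 of 20 synthesis enzymes that rose, and its responses were not shown to differ (difference 0.17 ± 0.082, SE; adjusted p = 0.128). MSMO1 (3.33), the feedback protein INSIG1 (2.93) and the cholesterol exporter of lysosomes NPC1 (1.33) rose. SREBF2, the factor that drives these genes, rose in both lines (0.67 and 0.66; difference 0.0098 ± 0.039, SE; adjusted p = 0.890). The efflux pump ABCA1 fell in both (-1.14 and -1.22).

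FASN, the fatty acid synthase, rose from 712, 779, 777 and 772 CPM to 7083, 7626, 6912 and 7515 CPM (9.59-fold), and its share of all reads went from 0.0720% to 0.0792% up to 0.654% to 0.728%. The acetyl-CoA enzymes ACSS2 (2.71) and ACLY (2.06) and the desaturase SCD (1.59) rose. For SCD no difference between the lines was called (0.050 ± 0.040, SE; adjusted p = 0.394). Of 30 lysosome and autophagy genes 23 rose and 2 fell (median 0.31), with 18 and 2 in null cells. The sialidase NEU1 rose most among the lysosomal members (1.20, and 1.40 in null cells), and the protease CTSB fell (-0.58).

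Cell cycle genes fell together. All 48 tested genes of G2 and mitosis fell (median -0.86), and all 48 fell in null cells as well; the fall was larger in Y220C cells for 21 and smaller for 1. SPC24 went from 30.6, 32.7, 30.1 and 29.8 CPM to 8.20, 7.79, 8.08 and 7.10 CPM, 3.95-fold lower (log2 -1.98 ± 0.076, SE; adjusted p = 1.39e-14), against -0.93 in null cells. Its partner in the NDC80 complex, SPC25, fell likewise (-1.66 and -0.92). CDK1, the kinase that drives mitosis, went from 109.7, 109, 103 and 106 CPM to 52.5, 47.99, 51.9 and 50.6 CPM, and its fall did not differ detectably between the lines (-1.08 and -1.09; difference 0.013 ± 0.055, SE; adjusted p = 0.899). The mitotic kinase AURKB (-1.46) and the topoisomerase TOP2A (-1.32) fell. MKI67, the common marker of cycling cells, fell from 137, 106, 152 and 175 CPM to 42.03, 44.98, 48.5 and 68.02 CPM, with a wide spread among libraries of each group but no overlap.

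Of 51 genes of replication and S phase entry 45 fell and 3 rose (median -0.86), and all 23 licensing and fork genes fell, MCM5 (-1.51) and GINS2 (-1.47) among them. The nucleotide reductase subunit RRM2 went from between 208 and 221 CPM to between 74.7 and 83.7 CPM (log2 -1.43). The S phase factors E2F1 (-1.24) and E2F2 (-1.82) fell. DNA repair genes fell in 38 of 47 cases (median -0.44), led by recombination: RAD54L (19.1, 19.7, 18.6 and 18.5 CPM to 5.20, 5.35, 5.42 and 4.77 CPM, log2 -1.87), XRCC2 (-1.54) and BRCA1 (-1.14). The ligase LIG4 of end joining was the member that rose (0.24, adjusted p = 0.0258), with overlapping groups, and its call was lost within the libraries without PTPRC reads (0.0019, adjusted p = 0.996), with a term for PTPRC reads (0.20), with length-scaled TPM (0.24), and without DMSO replicate 1 or 3 or MS78 replicate 3 or 4 (0.19 to 0.23).

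The antioxidant and metal lists rose. Of 26 genes of the NRF2 response 20 rose and 2 fell (median 0.43). OSGIN1 rose from between 19.7 and 21.8 CPM to between 83.2 and 90.5 CPM (2.06), the thioredoxin reductase TXNRD1 by 1.14, the sulfiredoxin SRXN1 by 1.23 and the partner factor MAFF by 2.09. All 4 tested metal genes, of 11 listed, rose: the zinc exporter SLC30A1 went from 28.5, 28.9, 26.2 and 29.02 CPM to 80.8, 80.6, 84.6 and 83.5 CPM (2.92-fold), the metallothionein MT1X rose by 1.61, and MT2A by 0.45 with overlapping groups. Metallothionein genes are close copies of each other, so single members are uncertain.

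Of 28 NF-kB and inflammation genes 20 were tested, of which 17 rose and 2 fell (median 0.73), with 4 and 4 in null cells, and 14 responses were higher in the Y220C cells. TNFAIP3 (A20), the feedback inhibitor of the pathway, went from 8.70, 6.66, 6.76 and 6.62 CPM to 16.2, 19.6, 20.3 and 19.5 CPM (log2 1.39), while in null cells it did not pass the test (-0.039, adjusted p = 0.827). The cytokine IL11 (1.93), the prostaglandin synthase PTGS2 (1.89) and the chemokine CCL2 (1.93) rose from low levels, and the chemokine CXCL2 fell (-0.67). Of 26 tested interferon genes 15 rose and 6 fell (median 0.22). IFIT2 went from between 7.16 and 8.22 CPM to between 29.6 and 32.2 CPM (1.99), with IFIT1 (1.46) and IFIT3 (1.42), antiviral proteins of the same family, and OASL rose in both lines (2.31 and 2.68). Some NF-kB and interferon genes are also made by leukocytes. In the libraries without PTPRC reads alone, 13 of the NF-kB genes rose and 1 fell, and 8 of the interferon genes rose and 2 fell.

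Genes of acetylation and its readers, of which MS78 is built to recruit p300 and CBP, stayed near the background: 11 of 38 rose and 10 fell (median -0.06). EP300, which encodes p300, went from 44.3, 34.3, 45.8 and 47.998 CPM to 46.99, 52.5, 57.6 and 55.1 CPM (log2 0.30 ± 0.087, SE; adjusted p = 0.00794) with overlapping groups, and by 0.30 in null cells. CREBBP, which encodes CBP, was at between 55.4 and 68.8 CPM and between 55.5 and 68.1 CPM, with no change detected (adjusted p = 0.762). The deacetylase HDAC9 rose most in the list, from 28.6, 26.3, 28.1 and 29.6 CPM to 128, 129, 135 and 126 CPM (4.60-fold), and by 1.38 log2 units in null cells. SIRT1 rose (0.52) and HDAC10 fell (-0.64). The acetyl-lysine readers BRD2 (0.47) and BRD3 (-0.35) moved in opposite directions. The list of the MYC network and ribosome biogenesis was mixed, with 12 of 36 genes rising and 16 falling. MYC, a factor that drives growth, rose (0.80) and fell in null cells (-0.25), its antagonist MXD1 rose (1.25) and MXD3 fell (-1.82). Of 26 hypoxia and glycolysis genes 13 rose and 8 fell. P4HA2 of collagen synthesis rose (1.44), and the lactate enzyme LDHA fell (-0.30) but rose in null cells (0.22). The drug efflux pump ABCB1, from between 12.6 and 15.96 CPM to between 33.6 and 40.02 CPM, rose by 1.31, and 5 of 10 genes of drug metabolism and efflux rose and 1 fell. Of 28 matrix and TGF-beta genes 7 rose and 6 fell, and of 5 alpha-arrestin genes 1 rose and 2 fell. Of other markers, 0 of 5 fibroblast genes rose and 1 fell, and 4 of 8 neural genes rose and 1 fell. Of 13 genes encoded by mitochondria 6 rose and 1 fell, and of 55 ribosomal protein genes 5 rose and 8 fell. Without DMSO replicate 1 only 3 mitochondrial genes rose, and the ribosomal counts shifted with single libraries, to 2 rises without DMSO replicate 1 or 3 or MS78 replicate 1, and to 11 and 12 without DMSO replicate 2 and MS78 replicate 4. Within the libraries with PTPRC reads 0 ribosomal genes rose and 12 fell, and within those without 9 rose and 0 fell, so the direction of this list turned with the split. With a term for PTPRC reads 10 mitochondrial genes rose and 0 fell.

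The response of the Y220C cells was then set against that of the null cells, which have their own 4 DMSO libraries. In null cells 4402 genes were called (28.1%), and 3116 genes were called in both lines, which is 40.9% of the calls in Y220C cells and 70.8% of those in null cells. Of these 2780 moved in the same direction and 336 in opposite directions. The median size of the log2 change over all genes was 0.241 in Y220C cells and 0.143 in null cells. A difference between the responses was called for 4197 genes (26.8%), 2256 higher in Y220C cells (14.4%) and 1941 lower (12.4%). Of the 7611 genes called in Y220C cells, 3522 (46.3%) also differed from null cells, in 3277 with the larger change in the Y220C cells, and of the 696 genes past 2-fold 382 differed.

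At a mean of 1 CPM or more over all 16 libraries, the protein-coding genes whose response was highest relative to null cells were HSPA6 (difference 6.06), TKTL1, EGR4 (4.92), DUSP8 (4.53), FOS (4.20) and FOSB (4.10). TKTL1, a relative of transketolase, differs from these in its level: it had 0 reads in all 4 DMSO libraries of Y220C cells and 0, 6, 4 and 1 with MS78, against 107 to 123 and 72 to 108 in null cells. The 3 libraries with its reads are among those with PTPRC reads, and a fold against a group at 0 is not given here. Below that level CRYAB had 1, 0, 0 and 1 reads with DMSO and 0 in all 4 libraries with MS78 in null cells. At the other end lay PCDHA12 (-2.37), a protocadherin whose exons are shared within its cluster, the peptide hormone gene CRH (-2.19) and SYT12 (-1.83), all at low levels with overlapping groups in Y220C cells. IQCN fell without overlap, from between 4.03 and 6.06 CPM to between 0.834 and 1.83 CPM, and its response differed by -1.75 (adjusted p = 5.99e-05). RIBC2 fell from between 2.30 and 3.23 CPM to between 0.469 and 0.876 CPM (-1.98).

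**Figure D4:**
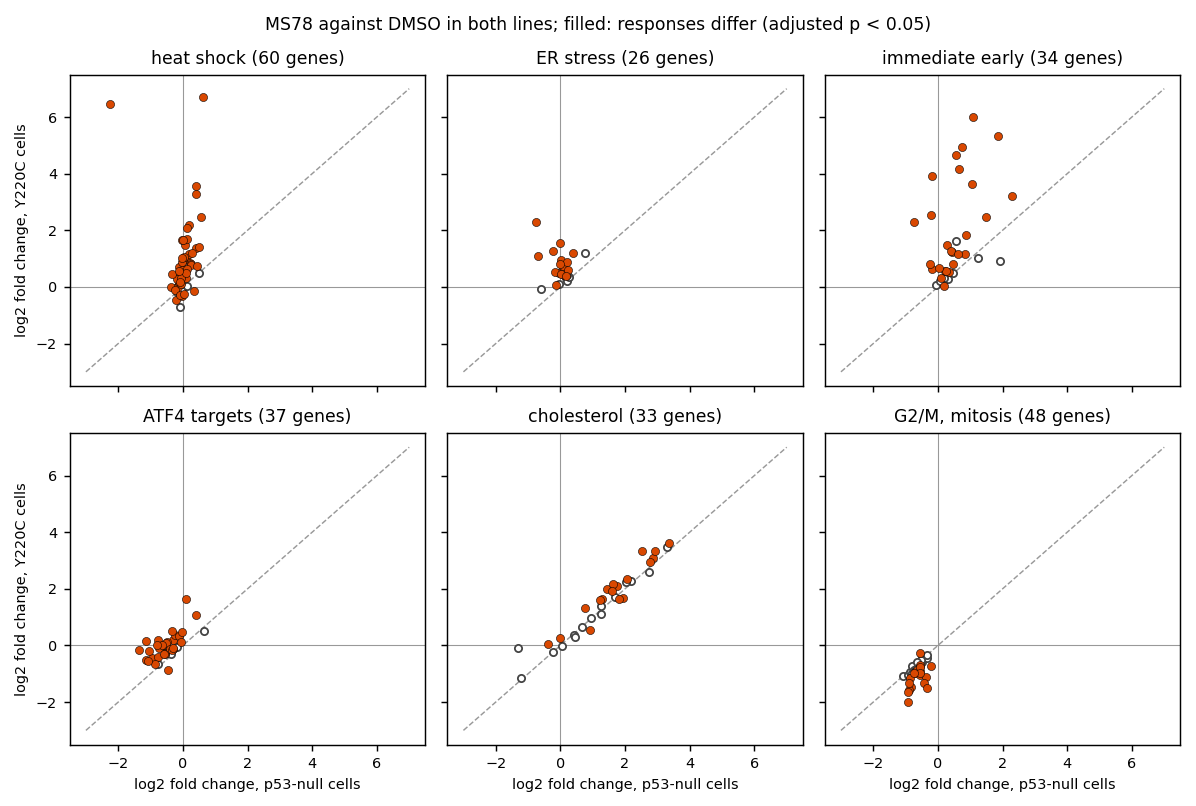
Log2 fold change with MS78 in p53-null cells (x axis) and in Y220C cells (y axis) for the members of 6 gene lists; the dashed line marks equal responses and filled points are genes whose responses differ at an adjusted p under 0.05. Most heat shock and ER stress points lie above the line near 0 on the x axis, and the cholesterol points lie near the line.

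The leukocyte reads were accounted for in 3 ways. Between libraries with and without PTPRC reads 154 genes differed (0.982% of those tested), 151 of them higher with such reads (0.963%), and 34 were also among the genes that rose with MS78. When a term for PTPRC reads was added to the model, 7260 genes were called, 6986 of them among the 7611 (91.8%), 625 were lost and 0 changed direction. The term marks only whether a library had at least 10 PTPRC reads. It does not follow the amount of leukocyte reads, so unevenness among the marked libraries was not removed. With the term 3783 genes rose and 3477 fell, 344 and 325 of them at least 2-fold. Of the 34 shared genes 13 were still called. GNLY, an antimicrobial protein of killer lymphocytes, shows the pattern: it was at 5.399, 0, 0.0939 and 0.0444 CPM with DMSO and 0, 38.7, 42.97 and 7.30 CPM with MS78, a log2 change of 3.93 (adjusted p = 0.0152) that became 2.41 (adjusted p = 0.0124) with the term. The T cell receptor subunit CD247 (3.43) was still called with the term (2.12, adjusted p = 0.0153), whereas the lymphocyte protease GZMH (3.34) was not (1.86, adjusted p = 0.0960), nor the death ligand FASLG (3.36, then 1.90 with adjusted p = 0.124), which had 3, 0, 0 and 0 reads with DMSO and 0, 17, 11 and 4 with MS78. The calls of these 4 rest on few libraries: that of GNLY was lost without MS78 replicate 3 (3.40), that of CD247 without MS78 replicate 2 (2.76), and those of GZMH and FASLG without any of DMSO replicates 2 to 4 or MS78 replicates 2 and 3. Of 22 tested leukocyte markers 3 were called higher with MS78, and 19 were without DMSO replicate 1. TNFSF10 was called without that library as well (log2 4.80, against 1.10 with it). Each of GNLY, CD247, GZMH and FASLG is at or near 0 in the 4 libraries without PTPRC reads.

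Within the 4 libraries with PTPRC reads (DMSO replicate 1 against MS78 replicates 2 to 4) 5222 genes were called, and within the 4 without (DMSO replicates 2 to 4 against MS78 replicate 1) 3490. Each set has a lone library on 1 side, which is assumed to vary like the others. Each fit also held the 4 null libraries of the same kind, so its spread came from 8 libraries, with 4 residual degrees of freedom. Of the genes called over all 8 libraries, 7598 of 7610 kept their direction in the first set and 7548 of 7577 in the second. Both sets reuse libraries that made these calls, so the agreement was partly built in and is no independent check. In the set with PTPRC reads 39 heat shock genes rose and 7 fell, 22 ER stress genes rose and 0 fell, 30 immediate early genes rose and 0 fell, 28 cholesterol genes rose and 2 fell, and all 48 mitotic genes fell. In the set without PTPRC reads 39 heat shock genes rose and 2 fell, 20 ER stress genes rose and 0 fell, 29 immediate early genes rose and 0 fell, 26 cholesterol genes rose and 1 fell, and 47 of 48 mitotic genes fell. For the p53 targets the counts were 22 and 5 in the first set and 16 and 4 in the second. In the first set 9 ATF4 genes rose and 16 fell, 44 replication genes and 34 DNA repair genes fell, 19 NRF2 genes and 12 fatty acid genes rose, and 6 death receptor genes rose and 3 fell. In the second 7 ATF4 genes rose and 9 fell, 44 replication genes and 28 DNA repair genes fell, 20 NRF2 genes and 11 fatty acid genes rose, and 6 death receptor genes rose and 3 fell. The falls of hypoxia and glycolysis genes went from 8 in the first set to 1 in the second, and those of the MYC list from 12 to 5. Of the 372 genes that rose at least 2-fold, 33 were also among the 151 higher with PTPRC reads.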

How the data were processed

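RNA was sequenced from 16 libraries of NCI-H1299 cells, 4 per line and treatment. The deposited tables, 1 per library, give for each transcript an estimated count of reads (not whole numbers) and TPM, which per the file headers the authors' quantifier scales by effective transcript length and to 1000000 per library; the lengths are in bases. No source used here names the quantifier or the transcript annotation. The submitters' processing notes name hg38 and FastQC 0.11.8. Whether reads were counted by strand is not stated, so genes that overlap, close copies and antisense pairs are uncertain.

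Estimated counts were summed per gene of GENCODE 29 (97.8% of transcript names matched), rounded and tested with edgeR 4.0.16 in R 4.3.3: TMM scaling, filterByExpr (15687 of 56865 genes kept) and the quasi-likelihood test on 1 mean per group over all 16 libraries, with Benjamini-Hochberg adjustment and a threshold of 0.05. The fit had 12 residual degrees of freedom. Groups come from the labels alone. The difference between lines is the interaction of line and treatment. Fold changes are edgeR's, at the default prior count of its quasi-likelihood fit. A prior count of 2 was used only for the log levels behind the principal components and the correlations of replicates. No pair of replicates in the Y220C groups agreed within sampling noise. The code was tested on simulated data.

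The members and gene lists were chosen with earlier results of these data known. Lists hold 877 genes and are described by counts and medians, with no list test. Named genes were some always given (CDKN1A, MDM2, TRAIL receptors, EP300, CREBBP, HSF1, HSPA6, HSPA1A, DNAJB1), the 15 largest rises and falls without overlap at 1 CPM or more, the 6 highest and lowest differences between lines, and up to 4 per role of each list, in order of size; genes named outside this rule, besides those said so in the text, are leukocyte markers and members that complete the count of a role. Some genes that the rule names are not reported here. Alternatives were DESeq2 1.42.0, DESeq2's scaling, no filter, a filter of 1 CPM in 4 libraries, length-scaled TPM, a replicate block, a PTPRC term, libraries with or without PTPRC reads, the 8 libraries alone, and leaving out each library.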

Additional observations from a re-analysis of the deposited data

Results flagged for a closer look

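For 134 of the 169 genes named, the change with MS78 differed between the Y220C cells and the p53-null cells by the test of the difference itself. Over all 15687 tested genes the share was 26.8%. Most named genes were picked by the size of their change or of this difference in the same data, so a high count was built in and is no result. The value in brackets after each gene is this difference on the log2 scale, positive where the change was higher in the Y220C cells.

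Among the p53 targets, the difference was positive for CDKN1A (1.01), GADD45A (1.23), PLK2 (0.82), PLK3 (0.78), PPM1D (0.82), AEN (1.24), SAT1 (1.09), LIF (1.06), PGF (1.62) and PMAIP1 (0.98). The receptors and inhibitors of the death pathway were TNFRSF10A (0.34), TNFRSF10B (0.47), TNFRSF10D (0.26), TNFRSF12A (0.59) and BIRC3 (1.005), and the receptor TNFRSF25, which fell, was at -0.99. Within the BCL2 and caspase families they were MCL1 (0.29), BAK1 (0.32), HRK (0.85) and CASP9 (0.43). All of these genes but TNFRSF25 rose in the Y220C cells. Over all 65 tested p53 targets 19 differences were positive and 3 negative (background 14.4% and 12.4%). The 3, which are outside the 169 and were added after their values were seen, were TP53I3 (-0.56), TP53INP1 (-0.37) and CCNG2 (-0.36).

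The HSP70 group gave HSPA6 (6.06), HSPA1A (3.17), HSPA1B (2.87), HSPA8 (0.64) and HSPA1L (0.93), and its partners gave DNAJB1 (2.01), DNAJB4 (1.39), BAG3 (1.95) and HSPH1 (1.69). HSP90, its co-chaperone and the mitochondrial and small chaperones gave CHORDC1 (1.68), HSP90AA1 (0.98), HSP90AB1 (0.50), HSPD1 (0.84), HSPE1 (0.90), HSPB8 (1.55) and CRYAB (8.71), where CRYAB had 0 or 1 reads in every library other than those of Y220C cells with MS78, so that its fitted value is no measure of size. Further targets of HSF1 and the ubiquitin receptor gave HMOX1 (1.90) and SQSTM1 (0.51). The difference was negative for TRAP1 (-0.28), HSPA2 (-0.31), PSMC3 (-0.41), FKBP5 (-0.21) and STUB1 (-0.30), which fell in the Y220C cells.

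For ER stress genes the values were HSPA5 (1.54), HSP90B1 (0.94), XBP1 (0.83), HERPUD1 (1.497), EIF2AK3 (0.78), ATF3 (3.04), DDIT3 (1.78), CALR (0.60) and CANX (0.47). In the ATF4 list they were ATF4 (0.51), ASNS (0.60), PSAT1 (0.54), CHAC1 (0.52), PPP1R15A (1.55), SLC38A2 (0.48), SLC3A2 (0.98) and SLC7A5 (0.21), and negative for DDIT4 (-0.39). ASNS, PSAT1, CHAC1 and SLC7A5 fell in both lines, and less in the Y220C cells.

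For immediate early genes the values were FOS (4.20), FOSB (4.10), JUN (2.76), JUND (0.32), EGR1 (2.58), EGR2 (3.50), EGR3 (3.49), EGR4 (4.92), NR4A1 (0.99), NR4A3 (0.91), KLF2 (1.21), KLF6 (0.80), CTGF (0.98), ARC (4.11), DUSP8 (4.53), DUSP1 (0.86) and DUSP5 (0.57), and negative for DUSP6 (-0.15). The lipid genes gave smaller values, HMGCS1 (0.25), MSMO1 (0.42), INSIG1 (0.15), FASN (0.71), ACSS2 (0.39), ACLY (0.13) and NPC1 (0.57). Of 17 lysosomal genes 3 differences were positive and 3 negative, 2 of the negative ones being NEU1 (-0.20) and CTSB (-0.18).

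Cell cycle genes had negative values, since they fell further in the Y220C cells: MKI67 (-1.14), TOP2A (-0.44), AURKB (-0.62), SPC24 (-1.05), SPC25 (-0.74), MCM5 (-0.71), GINS2 (-0.70), RRM2 (-0.64), E2F1 (-0.51) and E2F2 (-0.83). The repair genes were RAD54L (-0.80), XRCC2 (-0.70) and BRCA1 (-0.22), and 3 more with large falls were RIBC2 (-1.13), IQCN (-1.75) and MXD3 (-1.06).

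Antioxidant and metal genes gave OSGIN1 (1.22), SRXN1 (1.12), TXNRD1 (0.87), MAFF (1.09), MT1X (1.38), MT2A (0.53) and SLC30A1 (1.39). Inflammation and interferon genes gave TNFAIP3 (1.43), IL11 (1.68), PTGS2 (1.63), CXCL2 (-0.29), IFIT1 (1.29), IFIT2 (1.76) and IFIT3 (1.23). Chromatin genes gave HDAC9 (0.82), HDAC10 (-0.70), SIRT1 (0.53), BRD2 (0.28) and BRD3 (-0.24). The remaining genes were MYC (1.05), MXD1 (0.97), LDHA (-0.52), P4HA2 (1.04), ABCB1 (1.08), KRT8 (-0.38) and KRT18 (-0.30). Of the low genes, TKTL1 (5.07) had 0 reads in all DMSO libraries of Y220C cells, so its fitted value depends on the prior count and is no measure of size. Its log2 change in Y220C cells was 0 within the libraries without PTPRC reads. The genes PCDHA12 (-2.37), CRH (-2.19) and SYT12 (-1.83) lay at low levels.

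In 26 of 338 sets of 4 libraries, 1 library lay far from the other 3, with a gap to its neighbour above Dixon's 95% critical value for the whole range. Chance gives this in about 5% of such sets, and 8 of the 26 were in DMSO replicate 1. DMSO replicate 1 stood apart for TNFSF10 at 0.986 CPM (others 0 to 0.0444), FASN at 712 CPM (others 772 to 779), TNFAIP3 at 8.7 CPM (others 6.62 to 6.76), IL11 at 0.6 CPM (others 0.933 to 0.986), PTPRC at 2.36 CPM (others 0 to 0), GNLY at 5.4 CPM (others 0 to 0.0939), CD247 at 0.6 CPM (others 0 to 0.0483) and GZMH at 0.643 CPM (others 0 to 0). DMSO replicate 2 stood apart for FDXR at 20.9 CPM (others 18.9 to 19.2), TNFRSF10D at 25.5 CPM (others 23.1 to 23.4), HSPH1 at 231 CPM (others 239 to 240.0), NPC1 at 102 CPM (others 109 to 109.8), MXD3 at 12.9 CPM (others 10.3 to 10.4) and SLC7A5 at 653 CPM (others 610.1 to 613). DMSO replicate 4 stood apart for PMAIP1 at 21.2 CPM (others 26.01 to 26.99), BIRC3 at 51.2 CPM (others 42.9 to 44.2) and TNFRSF1B at 5.33 CPM (others 8.12 to 8.36). MS78 replicate 1 stood apart for NEU1 at 269 CPM (others 258 to 259.5). MS78 replicate 2 stood apart for POLH at 17.96 CPM (others 15.5 to 15.9), HRK at 12.1 CPM (others 10.1 to 10.2), HSP90AA1 at 8331 CPM (others 8892 to 8901) and CALR at 872 CPM (others 905 to 911). MS78 replicate 3 stood apart for CDKN1A at 115 CPM (others 127 to 129). MS78 replicate 4 stood apart for SCD at 14371 CPM (others 14758 to 14778), IL11 at 2.94 CPM (others 3.41 to 3.49) and MXD1 at 47.2 CPM (others 44.3 to 44.6).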

How the results depend on the processing

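The count of genes called in the Y220C cells was 7611, and it lay between 6005 and 7565 with other scaling, filters, tools or a PTPRC term: 7565 with RLE factors, 7530 with no filter, 7493 with a filter of 1 CPM, 7249 with DESeq2, 7260 with the PTPRC term, 7047 over the 8 libraries alone and 6005 with length-scaled TPM. It was 5222 where only libraries with PTPRC reads were used and 3490 where only those without were, 4 libraries each. The genes called higher were then 1972 in those without, and those called lower were 2319 in those with and 1518 in those without. At least 2-fold, 613 were higher with no filter, which adds genes of few reads, and 206 were lower within the libraries with PTPRC reads. The difference between the lines was called for 4197 genes, and for 2751 with length-scaled TPM (1240 lower), 1870 within libraries with PTPRC reads (1185 higher, 685 lower) and 411 within those without (300 higher, 111 lower).

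Leaving out 1 library at a time, 6966 to 7334 genes were called, 3590 to 3808 higher and 3376 to 3545 lower; at least 2-fold, 336 to 470 higher and 320 to 367 lower; for the difference, 3685 to 4250, with 2010 to 2223 higher and 1675 to 2027 lower. The largest 2-fold count, 470, was without DMSO replicate 1, and 410 was without MS78 replicate 1, the libraries that stood apart.

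With the replicate number as a replicate block, 7110 genes were called (3668 higher, 3442 lower; 333 and 317 at least 2-fold), and the difference for 3648 (1948 and 1700). Of the named genes GNLY, CD247, GZMH and FASLG were then not called. Same-numbered libraries correlated at -0.496, -0.122, -0.067 and -0.087. DMSO replicate 1 correlated at 0.201 to 0.224 with MS78 replicates 2 to 4, the other libraries with PTPRC reads. Since the values follow that split, they cannot show whether the numbers pair the libraries.

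Among the named genes, changes of sign were found in those that were not called: MDM2 was at -0.0029 with no filter and between -0.043 and 0.100 as single libraries were left out (negative without DMSO replicate 1, DMSO replicate 2 or MS78 replicate 1). TNFRSF10C was at -0.75 within libraries without PTPRC reads and between -0.077 (without MS78 replicate 3) and 0.55 as single libraries were left out. DUSP4 was at -0.34 with the PTPRC term, and TNFSF10 at -0.34 with the PTPRC term and within libraries with PTPRC reads. CREBBP was at -0.13 within libraries without PTPRC reads, and between -0.024 and 0.098 as single libraries were left out (negative without DMSO replicate 2 or MS78 replicate 4). HSF1 was at -0.0065 with length-scaled TPM, and ZNF17 at -0.0038 within libraries without PTPRC reads. The cause was not tested. Of the 169 named genes, 164 kept direction and call with DESeq2, 163 with length-scaled TPM and 144 within the libraries without PTPRC reads, where DDB2 (-0.28), FDXR (-0.19), EP300 (0.14), HSPA2 (-0.17), SLC3A2 (0.24), LDHA (-0.27), CRH (-1.90) and PCDHA12 (-0.97) were among 16 not called. ATF4 (0.14) and SLC3A2 (0.15) were not called within those with PTPRC reads. Depth limits the genes under 1 CPM.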

Other observations

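Transcript classes differed in how they moved in the Y220C cells. Of 13372 tested protein-coding genes 3737 rose and 3250 fell, with a median log2 fold change of 0.0080. Of 588 long intergenic non-coding RNAs 61 rose and 132 fell (median -0.22), and of 742 antisense RNAs 41 rose and 129 fell (-0.21). Of 66 sense intronic RNAs 0 rose and 14 fell (-0.37). Over all tested genes 24.9% rose and 23.6% fell. In each of these non-coding classes the share that fell was not above that background, and the share that rose was below it. The median level over the 8 libraries was 26.5 CPM for protein-coding genes, 1.05 CPM for the long intergenic, 1.08 CPM for the antisense and 0.884 CPM for the sense intronic class, and whether reads were assigned by strand is not stated.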
